A study of Mus musculus with 12 samples.

Results

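Meiotic recombination and chromosome axis genes encode the proteins that cut, repair and hold together homologous chromosomes in meiotic prophase. A set of 38 such genes was followed among the 55385 genes of the deposited expression table, each found by its gene symbol in the table. By role the set holds 7 genes of the synaptonemal complex, 6 of the chromosome axis and meiotic cohesin, 2 RNA regulators of meiotic entry, 5 of double-strand break formation, 7 of strand exchange, 7 of crossover formation and 3 of telomere attachment. It also holds Tex14, a gene of the intercellular bridge between germ cells, and this gene and the 2 entry regulators Meioc and Ythdc2 belong to early germ cell development more than to recombination itself.

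RNA-seq was made from mouse spermatogonia sorted from testes, in 12 libraries that form 6 groups of 2 independent replicates. The wild-type (WT) groups were, from adult mice, C57BL/6 undifferentiated spermatogonia (WT Aundiff), sorted as E-Cadherin+ CD9high KIT- cells, and differentiating spermatogonia (WT Adiff), sorted as E-Cadherin+ CD9medium KIT+ cells. The other 4 groups came from a C57BL/6 and FVB/NJ background in which all animals, controls included, lacked Ring1, and in which Ddx4-Cre, a Cre active in germ cells, met 1 floxed Rnf2 allele. Animals labelled PRC1ctrl kept a wild-type Rnf2 allele (Ring1-/-; Rnf2 F/+; Ddx4-Cre) and animals labelled PRC1cKO did not (Ring1-/-; Rnf2 F/-; Ddx4-Cre), and Aundiff were sorted from both. RING1 and RNF2 are the alternative catalytic subunits of Polycomb repressive complex 1 (PRC1), which ubiquitinates histone H2A at silenced genes. One PRC1ctrl and PRC1cKO pair of groups was taken from animals 2 months old. In the other pair, daily injection of Win18446 began at 1 month of age and went on for about 30 days, with 50 µl of a 40 µg/µl solution each time. Win18446 inhibits ALDH1A2 and so blocks the synthesis of retinoic acid, the signal that starts spermatogonial differentiation. Cells were pooled for every library. The 2-month PRC1 libraries were made with a low-input kit that does not mark strand, and the WT and Win18446 libraries with a stranded mRNA kit from many more cells, so that kit and treatment cannot be told apart between the PRC1 pairs.

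In meiosis, SPO11 cuts DNA at sites marked by PRDM9, the recombinase DMC1 pairs the cut ends with the homologous chromosome, and the synaptonemal complex zips the aligned axes together while a few cuts mature into crossovers. Spermatogonia divide by mitosis and do not carry out these steps, but transcripts of many of the genes are known to be present in them before the proteins are needed. Retinoic acid and its target STRA8 raise the meiotic program, and variant PRC1 complexes that carry the E2F6 protein are known to hold a group of germline genes silent in somatic and embryonic cells.

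Values are TPM, transcript levels that are scaled by transcript length and by library, so levels may be compared between genes, but they keep no sequencing depth, and the counting error behind each value is unknown. The label check gave a mixed picture. In WT cells the summed level of 10 markers of undifferentiated spermatogonia was 925 and 1033 TPM in Aundiff against 293 and 327 TPM in Adiff, and 6 markers of differentiating spermatogonia summed to 460 and 515 against 2027 and 2117 TPM. Ring1 was 8.61 to 19.9 TPM in the WT libraries and 0.03 to 0.25 TPM in all 8 libraries of the Ring1-/- background. Rnf2 was not lower with the PRC1cKO label: it was 28.3 and 47.6 TPM in PRC1ctrl and 56.7 and 67.5 TPM in PRC1cKO at 2 months, and 78.1 and 67.2 against 86.2 and 93.1 TPM after Win18446. A level per gene does not separate transcripts that lack the floxed exons, so the mutant libraries are called here by their label. RNA of later germ cells was present as well. The summed level of 10 spermatid markers, among them the protamines, was 586 to 934 TPM in the WT libraries, 780 and 1847 TPM in PRC1ctrl and 59.1 and 65.2 TPM in libraries labelled PRC1cKO at 2 months, and 138 and 152 against 24.3 and 26.1 TPM after Win18446. Pachytene markers, 10 in number, summed to 26.1 to 440.7 TPM over the 12 libraries, and somatic markers to 22.6 to 223 TPM for Sertoli cells, 1.04 to 397 TPM for Leydig cells and 4.02 to 24.9 TPM for macrophages.

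**Figure D1:**
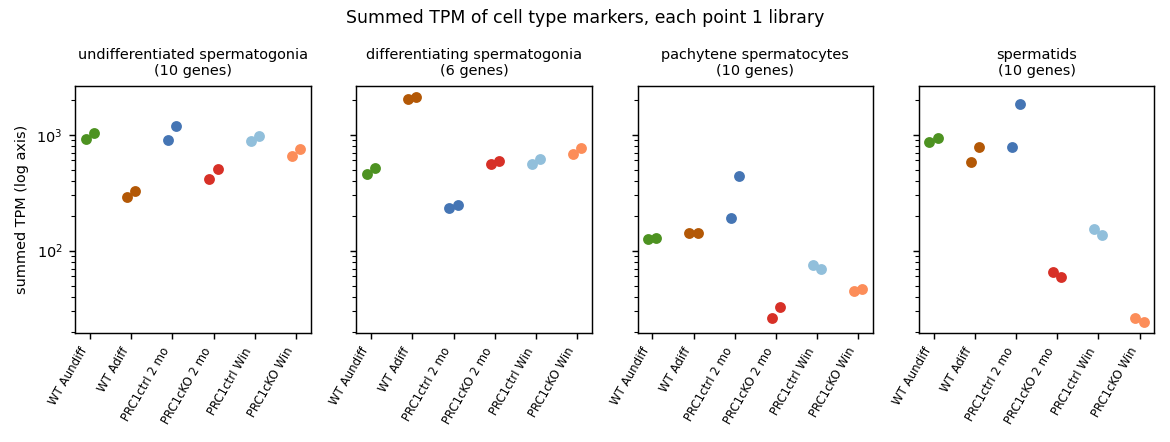
Summed TPM (log axis) of markers of undifferentiated and differentiating spermatogonia, pachytene spermatocytes and spermatids in each of the 12 libraries, with 1 point per library and the groups along the horizontal axis. Spermatid markers were lower in both libraries labelled PRC1cKO than in both PRC1ctrl libraries at 2 months (59.1 and 65.2 against 780 and 1847 TPM) and after Win18446 (24.3 and 26.1 against 138 and 152 TPM).

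Of the 38 genes, 34 to 38 reached 1 TPM in each library, and Syce2 was the highest in all 12. Syce2, which encodes a central element protein of the synaptonemal complex, was 214 and 195 TPM in WT Aundiff, 392 and 383 in WT Adiff, 1831 and 1094 in PRC1ctrl and 1760 and 1429 in libraries labelled PRC1cKO at 2 months, and 218 and 207 against 248 and 254 TPM after Win18446. The gene that came next by group mean differed between the groups. It was Syce3, another central element gene, in the WT and Win18446 groups, at 162.3 and 148.9 TPM in WT Aundiff, 133.4 and 150.7 TPM in WT Adiff, and 147.3 and 146.9 against 210.3 and 211.2 TPM after Win18446. In the 2-month PRC1 groups Syce3 was 61.0 and 51.2 against 85.1 and 91.6 TPM, and Sycp3 came next, which raised the mean of Sycp3 over the 12 libraries to 169.9 TPM and that of Tex11 to 155 TPM. Sycp3, an axial element gene, was 48.9 and 34.2 TPM in WT Aundiff, 59.9 and 47.0 in WT Adiff and 309.5 and 249.7 TPM in PRC1ctrl against 466.5 and 396.9 TPM in libraries labelled PRC1cKO at 2 months. Tex11, an X-linked gene needed for crossovers, was 50.7 and 37.4 TPM in WT Aundiff, 81.2 and 63.5 TPM in WT Adiff, and 78.7 and 67.2 against 85.9 and 66.5 TPM after Win18446. Both were higher in the 2-month PRC1 libraries than in all others. The lowest mean over the 12 libraries belonged to Meiob at 1.81 TPM, with Majin at 2.25, Mcmdc2 at 2.76 and Msh4 at 2.79 TPM just above it. The 7 synaptonemal complex genes ranged from 12.6 TPM for Sycp2 to 685 TPM for Syce2 in this mean, and Spo11, which encodes the enzyme that makes the breaks, was at 2.84 TPM.

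**Figure D2:**
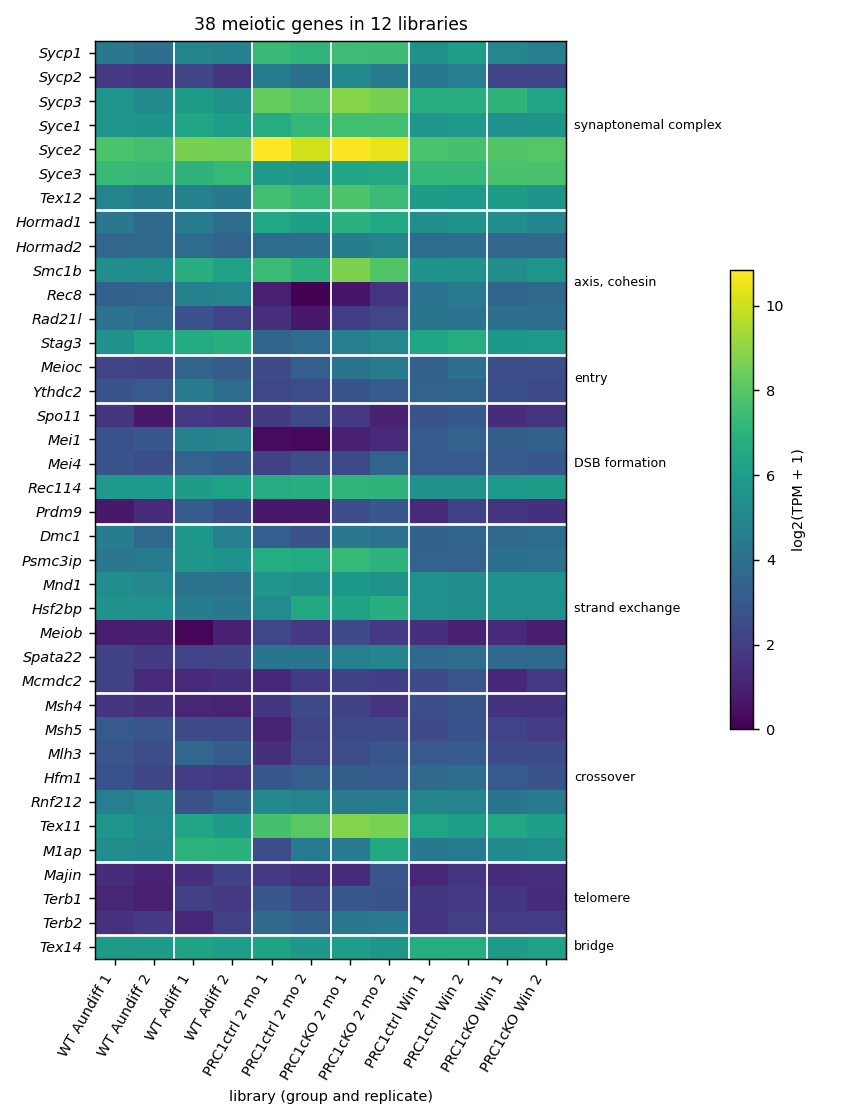
Level of each of the 38 genes, as log2(TPM + 1) by colour, in each of the 12 libraries, with genes ordered by role and libraries by group. Syce2 is the highest gene in every library, and Mei1 and Rec8 are at 2.19 TPM or less in the 2-month PRC1 libraries.

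The 2-month PRC1 libraries stood apart in the profile of these genes. The summed level of the 38 genes was 1009 to 1613 TPM in the 8 WT and Win18446 libraries and 2874 to 4639 TPM in the 4 others, while the median of the genes ran from 11.5 to 21.9 TPM over all 12. In the ratio of mean TPM between PRC1ctrl at 2 months and WT Aundiff, 15 genes were above 2 and 8 were below 0.5, from Mei1 at 0.0362 to Sycp1 at 8.31. For PRC1ctrl after Win18446 the same ratio ran from 0.481 for Psmc3ip to 9.36 for Sycp2, with 13 genes above 2 and 1 below 0.5. The libraries also differed over all genes: 12422 to 13986 reached 1 TPM in the 2-month PRC1 libraries and 14796 to 16599 in the others. Ratios were taken for the 38 genes only, so it was not tested whether they differ from those of all genes. These ratios cross strain and genotype, at 2 months also kit, and in the other pair also the Win18446 treatment, whose parts in them cannot be told apart, so no test was made of them.

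Upstream sequence is shown for genes that were higher in WT Adiff, since 6 of the 7 such genes with a promoter entry held the core letters of the E2F motif. RefSeq promoters on GRCm38.p6 were given for 31 of the 38 genes, and Meiob, Mcmdc2, Terb2, Majin, Spo11, Ythdc2 and Tex11 had no entry. In the 250 bases before the start, searched on both strands, TCCCGC was present in 17 of 31 genes (54.8%), against 18.8% of 27025 genes with an entry. The E-box CACGTG was present in 7 of 31 (22.6% against 6.86%), and CNCCTCAG, a motif reported for STRA8 target promoters, in 6 of 31 (19.4% against 7.39%). The median GC content of these windows was 59.6% in the set and 52.4% in all genes, whose part in these shares was not tested. The stretches shown are written 5′ to 3′ on the strand of the gene, with the matches in capitals. They are M1ap at chr6:82946802-82946871 (+ strand), Prdm9 at chr17:15564363-15564432 (- strand), Meioc at chr11:102665335-102665394 (+ strand), Psmc3ip at chr11:101095436-101095487 (- strand) and Smc1b at chr15:85131967-85132036 (- strand).
M1ap: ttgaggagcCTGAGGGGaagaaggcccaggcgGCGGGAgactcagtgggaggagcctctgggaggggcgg
Prdm9: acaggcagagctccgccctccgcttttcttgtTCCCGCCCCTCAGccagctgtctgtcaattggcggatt
Meioc: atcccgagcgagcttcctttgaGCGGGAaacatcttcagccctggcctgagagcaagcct
Psmc3ip: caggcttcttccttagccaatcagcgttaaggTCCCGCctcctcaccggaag
Smc1b: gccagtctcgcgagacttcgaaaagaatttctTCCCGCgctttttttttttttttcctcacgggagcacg
In M1ap the first run of capitals is CNCCTCAG read on the other strand, and the second is TCCCGC read on the other strand, as it is in Meioc. In Prdm9 TCCCGC runs into CNCCTCAG and shares a base with it. TCCCGC began 88 bases before the RefSeq start in M1ap, 46 in Prdm9, 228 in Meioc, 20 in Psmc3ip and 47 in Smc1b. Prdm9 has another RefSeq start, whose window at chr17:15563332-15563581 held TCCCGC but not CNCCTCAG. The window that held more of the motifs is shown. For M1ap the bases after the start were not found in its gencode transcripts, as they were for the other genes shown. Rec8 was the other gene of the 6, and the window of Mei1 held none of the motifs. That window, at chr15:82082226-82082475, lies inside the gene, which starts at 82069996, and the bases before that start were not searched. The window of Meioc also lies inside its gene, which starts at 102663716. Those of Rec114, Hsf2bp and Msh4, among others, do so too. Among the genes called lower in WT Adiff, 2 of 4 held TCCCGC, as did 9 of the 20 remaining genes with an entry. The E-box was in none of the genes called in either direction, and its 7 matches were in Sycp1, Sycp3, Syce2, Tex12, Hormad1, Rec114 and Stag3. These matches describe letters in a window and were not tested as binding sites.

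The first comparison asks which of these genes change as WT spermatogonia start to differentiate. Both genes of meiotic entry (Meioc and Ythdc2), 2 of 5 genes of break formation (Mei1 and Prdm9), the cohesin genes Rec8 and Smc1b, Psmc3ip and M1ap were higher in WT Adiff. The cohesin gene Rad21l, Mnd1 and Hsf2bp of strand exchange and Rnf212 of crossover formation were lower. Of the 37 genes that passed the filter, 8 were called higher and 4 lower, at an adjusted p under 0.05 and a log2 difference beyond 1 by limma on log2(TPM + 1). Over all 15470 genes tested, 11.1% were called higher and 9.24% lower. The median log2 difference was 0.54 in the set and 0.15 over all genes. The libraries did not overlap in 22 genes that were higher and 7 that were lower, against 43.4% and 28.7% of all genes. Meiob, at 0.15 to 0.99 TPM, was not tested. These differences are on the log2(TPM + 1) scale and understate the change of low genes. As bulk samples, the libraries cannot separate fewer cells of a type from less RNA in each cell.

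Among the break formation genes, Mei1 and Prdm9 were higher in WT Adiff. Mei1, which is needed for breaks to form, was 5.56 and 6.58 TPM in Aundiff and 26.4 and 27.5 TPM in Adiff. The replicates lay far closer to each other than the groups did (log2 difference 1.99, SE 0.18, adjusted p = 0.0014 by limma). Prdm9, the histone H3K4 methyltransferase that sets where breaks fall, was 0.69 and 1.52 TPM in Aundiff and 7.93 and 5.25 TPM in Adiff. Both Adiff libraries were above both Aundiff libraries, with a log2 difference of 1.86 (SE 0.32, adjusted p = 0.00751). Spo11, at 2.08 and 0.68 against 2.47 and 2.17 TPM, did not pass the test, and neither did Mei4 (6.01 and 5.02 against 9.59 and 7.86 TPM) or Rec114 (57.6 and 55.5 against 62.3 and 76.9 TPM), whose proteins form the complex that assists SPO11.

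Both regulators of meiotic entry were higher. Meioc, whose protein extends meiotic prophase by binding RNA with YTHDC2, was 3.78 and 3.25 TPM in Aundiff and 10.3 and 8.09 TPM in Adiff, without overlap (log2 difference 1.17, SE 0.23, adjusted p = 0.0117). Ythdc2, the RNA helicase partner, was 5.77 and 7.14 TPM in Aundiff and 20.4 and 13.2 TPM in Adiff (log2 difference 1.23, SE 0.26, adjusted p = 0.0135). The cohesin subunits moved in opposite directions. Rec8, the kleisin that holds sister chromatids in meiosis, was 9.02 and 10.02 TPM in Aundiff and 25.9 and 29.0 TPM in Adiff, a log2 difference of 1.44 (SE 0.18, adjusted p = 0.00265). Rad21l, a kleisin that takes the same place in other meiotic cohesin complexes, was 15.4 and 13.3 TPM in Aundiff and 5.55 and 3.52 TPM in Adiff, and fell by 1.49 on the log2 scale (SE 0.25, adjusted p = 0.00687). Neither gene overlapped between the groups. Smc1b, the meiotic SMC subunit of both complexes, was 38.2 and 41.3 TPM in Aundiff and 112.3 and 73.4 TPM in Adiff (log2 difference 1.17, SE 0.22, adjusted p = 0.00881). Stag3, their shared STAG subunit, was 46.6 and 74.4 against 98.4 and 112.0 TPM and passed the adjusted p at 0.0331 but not the fold, with a log2 difference of 0.82. The axis genes Hormad1 and Hormad2, whose products recruit recombination factors, differed by 0.10 and -0.05 on the log2 scale, with SEs of 0.28 and 0.21.

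Strand exchange and crossover genes were split. Psmc3ip, which encodes HOP2, was 18.4 and 21.9 TPM in Aundiff and 53.1 and 45.3 TPM in Adiff, without overlap (log2 difference 1.25, SE 0.17, adjusted p = 0.00369). Mnd1, which encodes its partner in the complex that stimulates DMC1, was 38.9 and 31.6 TPM in Aundiff and 17.0 and 15.8 TPM in Adiff, and fell by 1.05 on the log2 scale (SE 0.17, adjusted p = 0.00644). The partner genes of this complex thus differed in opposite directions between the same libraries. Hsf2bp, whose protein binds BRCA2, was 45.3 and 43.1 TPM in Aundiff against 23.0 and 19.5 TPM in Adiff (log2 difference -1.03, SE 0.16, adjusted p = 0.00525). Dmc1 was 23.5 and 12.1 TPM in Aundiff and 53.2 and 24.9 TPM in Adiff. Its replicates were widely spread, and a log2 difference of 1.07 (SE 0.46) did not pass (adjusted p = 0.123). M1ap, a gene needed for male meiosis, was 39.8 and 35.6 TPM in Aundiff and 129.1 and 124.7 TPM in Adiff (log2 difference 1.73, SE 0.13, adjusted p = 0.00101). Rnf212, whose product marks crossover sites by stabilising MSH4 and MSH5, was 24.1 and 31.5 TPM in Aundiff and 5.82 and 9.20 TPM in Adiff, with no overlap (log2 difference -1.78, SE 0.26, adjusted p = 0.00444).

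None of the 7 synaptonemal complex genes was called. Syce2 came nearest, with a log2 difference of 0.92 (SE 0.12, adjusted p = 0.00282), and Sycp1, the transverse filament gene, and Syce1, a central element gene, also passed the adjusted p with differences of 0.66 and 0.56. Tex11 (0.71) and Terb1 (0.87), genes of crossover formation and of telomere attachment, were likewise under 0.05 in adjusted p but within the fold. Apart from Dmc1, the genes that did not pass lay between -0.60 for Hfm1, a crossover helicase gene, and 0.65 for Mlh3, a nuclease subunit gene of crossover resolution. Among them Msh4 was 2.26 and 1.82 against 1.23 and 1.05 TPM and Mcmdc2 3.34 and 1.43 against 1.51 and 1.84 TPM. A list of 37 other meiotic genes was read in the same way: 34 were tested, 5 were called higher (Stra8, Tex15, Exo1, Fignl1 and Ccdc36) and 1 lower (Rnf212b), with a median log2 difference of 0.36. Spermatid markers were not called in either direction between these groups, and of the pachytene markers Ybx2 was called higher. Scaled by median of ratios, which moves the median of all genes from 0.15 to 0.00 in these libraries, 1162 genes were called higher and 1750 lower in place of 1724 and 1430, and of the set 7 and 4. The calls for Smc1b, Ythdc2, Meioc, Mnd1 and Hsf2bp each rested on individual libraries: Smc1b differed by 0.87 without Adiff replicate 1 and Ythdc2 by 0.94, the adjusted p of Ythdc2 was 0.0604 and the differences of Mnd1 and Hsf2bp were -0.91 and -0.99 without Aundiff replicate 1, that of Hsf2bp was -0.92 without Adiff replicate 2, and the adjusted p of Meioc was 0.0591 without Aundiff replicate 2. Dmc1 without Adiff replicate 2 (adjusted p = 0.0249) and Stag3 without Aundiff replicate 2 (0.0139) passed with the library named left out. In a fit over all 12 libraries, M1ap and Hsf2bp were not called (adjusted p = 0.081 and 0.0713).

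**Figure D3:**
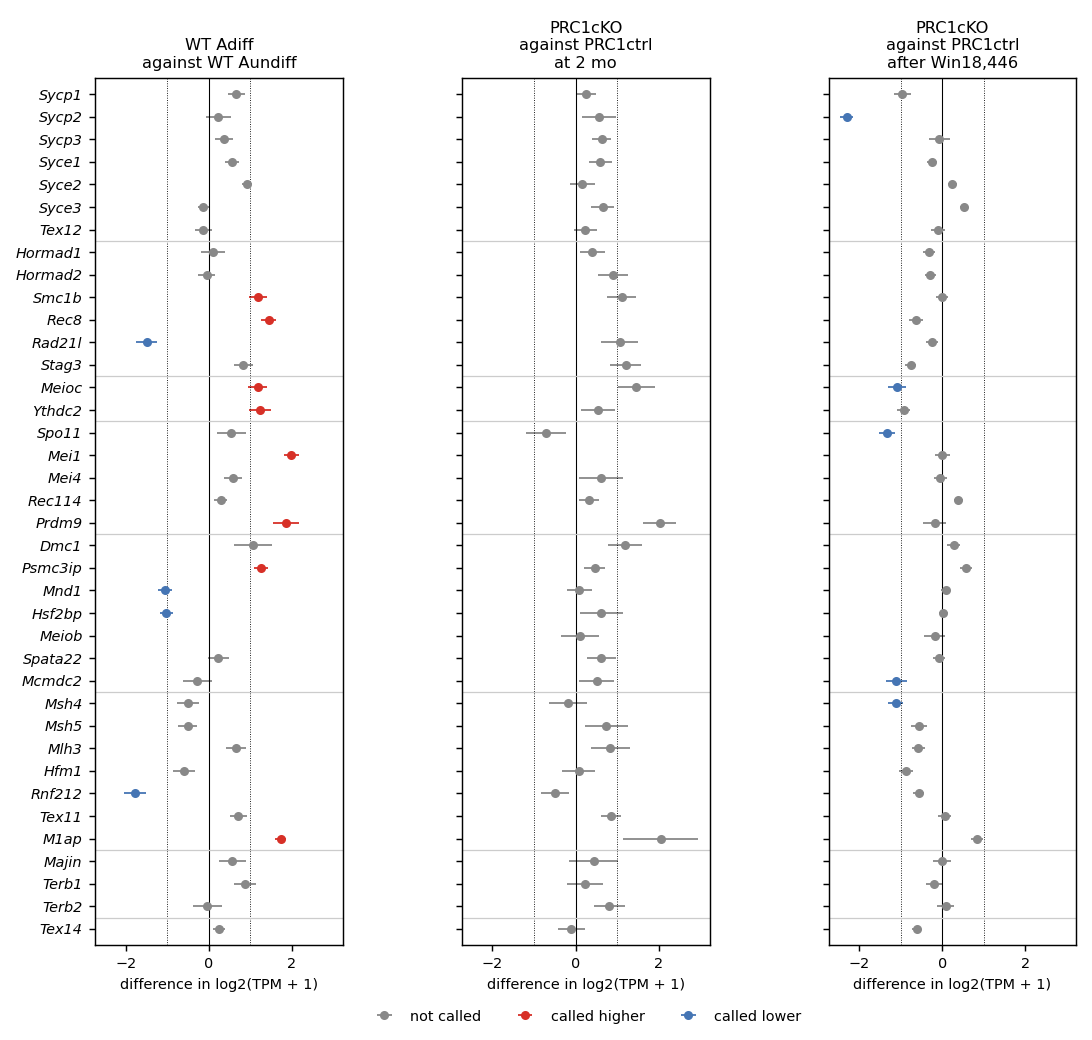
Log2 difference (TPM + 1) of each gene with its SE in the 3 comparisons, ordered by role, with genes called at an adjusted p under 0.05 and a difference beyond 1 in red (higher) or blue (lower). Between WT Adiff and Aundiff 8 genes are red and 4 blue, at 2 months none is coloured, and after Win18446 5 are blue.

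The second comparison asks how the genes differ in Aundiff labelled PRC1cKO at 2 months. Levels were higher with the PRC1cKO label in most of them, by amounts that did not pass the test across all genes. The study tested counts of these libraries with DESeq2 and reported Prdm9, M1ap and Meioc as upregulated in PRC1cKO. The test here used TPM without counts, so a gene that did not pass here is not shown to be unchanged. Of the 38 genes, 36 passed the filter, and limma called none higher and none lower. Over all 13953 genes, 0.222% were called higher and 1.94% lower, 2.16% in all. At an unadjusted p under 0.05 there were 8 genes: Prdm9, Tex11, Stag3, Meioc, Smc1b, Dmc1, Sycp3 and Hormad2, all higher with the PRC1cKO label. Of all genes, 14.2% were under that p and 5.98% were so in the higher direction. The difference was positive in 32 genes and negative in 4, where 65.1% of all genes were positive. The median was 0.58 on the log2 scale beside 0.22 over all genes. Scaled by median of ratios, which puts the median of all genes at -0.01, 25 were positive and 11 negative with a median of 0.32. The libraries did not overlap in 23 genes that were higher and 2 that were lower, against 27.5% and 17.3% of all genes.

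Prdm9 had the largest difference for its error. It was 0.62 and 0.67 TPM in PRC1ctrl and 4.87 and 6.67 TPM in libraries labelled PRC1cKO, a mean of 0.645 ± 0.0354 against 5.77 ± 1.27 TPM (SD, n = 2). Both labelled libraries lay well above both controls, at a log2 difference of 2.03 (SE 0.40, adjusted p = 0.0802 by limma). With both controls under 1 TPM, Prdm9 passed the filter only through the libraries labelled PRC1cKO. Its test was thus not independent of its being high there, under any scaling. Prdm9 was called higher when the libraries were scaled by median of ratios (1.84, adjusted p = 0.0281) or by quantiles (2.12, adjusted p = 0.0243). Meioc was 4.50 and 8.67 TPM in PRC1ctrl and 16.9 and 21.6 TPM with the PRC1cKO label, with no overlap (log2 difference 1.46, SE 0.45, adjusted p = 0.223). M1ap was widely spread within both groups. It was 4.90 and 20.6 TPM in PRC1ctrl and 21.9 and 94.9 TPM with the PRC1cKO label, with replicate 1 low in both groups (log2 difference 2.05, SE 0.90, adjusted p = 0.392).

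Cohesin genes stood in the same direction. Stag3 was 10.3 and 12.9 TPM in PRC1ctrl and 24.8 and 31.3 TPM with the PRC1cKO label, Smc1b was 168.9 and 125.1 against 418.4 and 238.2 TPM, and Rad21l 1.74 and 0.64 against 2.98 and 3.94 TPM. None of these overlapped between the groups, and their log2 differences were 1.20, 1.11 and 1.06 with SEs of 0.37, 0.35 and 0.45. Rec8 (0.91 and 0.04 against 0.51 and 2.19 TPM) and the break gene Mei1 (0.25 and 0.19 against 0.97 and 1.46 TPM) were too low to be tested here, although they were 9.02 to 29.0 and 5.56 to 27.5 TPM in the WT libraries made with the other kit. Dmc1 was 8.41 and 5.88 TPM in PRC1ctrl against 19.5 and 15.3 TPM with the PRC1cKO label (log2 difference 1.18, SE 0.41, adjusted p = 0.272). Tex11 was 203 and 270 against 448 and 407 TPM (log2 difference 0.86, SE 0.24, adjusted p = 0.173). All 7 synaptonemal complex genes were positive, between 0.16 for Syce2 and 0.65 for Syce3, and none passed. Spata22 and Meiob, partners in a complex that binds single-stranded DNA, were 17.4 and 17.3 against 25.0 and 29.8 TPM and 3.98 and 2.55 against 4.69 and 2.62 TPM. Of the other strand exchange genes, Psmc3ip was 104.5 and 97.8 against 150.4 and 129.2 TPM, Mnd1 49.8 and 45.0 against 54.2 and 47.0 TPM, Hsf2bp 36.1 and 95.2 against 74.4 and 110.7 TPM and Mcmdc2 1.41 and 2.57 against 3.26 and 3.06 TPM. Mnd1 and Hsf2bp overlapped between the groups, and Psmc3ip and Mcmdc2 did not. Terb2, which ties telomeres to the nuclear envelope, had both labelled libraries above both controls, with mean levels 1.81 times as high (log2 difference 0.81, SE 0.37, adjusted p = 0.419), while Majin and Terb1 of the same complex had differences of 0.43 and 0.22 with SEs of 0.60 and 0.43.

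The other 4 genes were negative at 2 months. Spo11 was 2.57 and 4.22 TPM in PRC1ctrl and 2.50 and 0.98 TPM with the PRC1cKO label, and Rnf212 was 32.9 and 28.3 against 21.9 and 20.9 TPM. Both had their groups apart, with log2 differences of -0.71 (SE 0.48) and -0.49 (SE 0.33). Msh4 was 2.34 and 4.33 against 3.37 and 2.14 TPM, and both it (-0.19) and Tex14 (-0.10) overlapped between the groups. Of the list of other meiotic genes, 33 of 37 were tested, none was called and the median was 0.56. In these libraries markers of later stages moved with the label: 5 of 8 tested spermatid markers and 3 of 9 pachytene markers were called lower. Undifferentiated markers summed to 907 and 1180 TPM in PRC1ctrl and 417 and 505 TPM in libraries labelled PRC1cKO (1 of 10, Nanos3, called lower). Their median log2 difference was only -0.18, so these sums do not describe the typical undifferentiated marker. Markers of differentiating spermatogonia summed to 235 and 246 TPM in PRC1ctrl and 558 and 598 TPM with the PRC1cKO label. The median log2 difference of these 6 was 1.325, and none was called. Leydig cell markers summed to 1.04 and 1.21 against 20.98 and 48.0 TPM (1 of 5 tested, Hsd3b1, called higher). Their part in the levels of the set was not tested. The absence of calls rests on the fit: a fit over all 12 libraries called 5 of the genes higher (Prdm9, Meioc, Stag3, Smc1b and Rad21l) and 662, or 4.74%, of all genes.

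**Figure D4:**
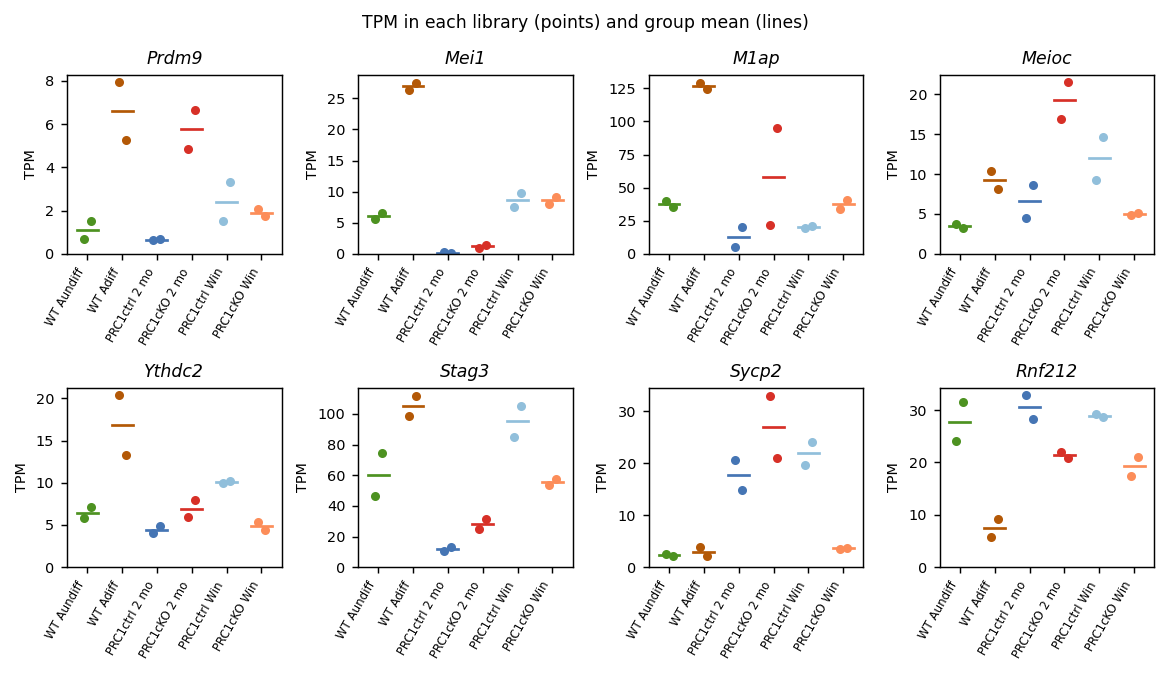
TPM of selected genes in each of the 12 libraries, with 1 point per library, a line at each group mean and the groups along the horizontal axis. Prdm9 is at 4.87 and 6.67 TPM with the PRC1cKO label at 2 months against 0.62 and 0.67 TPM in PRC1ctrl, and Sycp2 at 3.50 and 3.74 against 19.7 and 24.1 TPM after Win18446.

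The third comparison asks the same of Aundiff from animals given Win18446. Here 5 of the 38 genes, all of which were tested, were called lower with the PRC1cKO label and none higher, where over 16521 genes 10.9% were called lower and 1.27% higher. The called genes were Sycp2, Spo11, Msh4, Mcmdc2 and Meioc. The median difference was -0.20 in the set and -0.19 over all genes. It was negative in 27 genes and positive in 11, against 34.2% of all genes positive. The groups did not overlap in 19 genes that were lower and 8 that were higher, beside 49.3% and 20.1% of all genes.

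Sycp2, an axial element gene of the synaptonemal complex, fell most. It was 19.7 and 24.1 TPM in PRC1ctrl and 3.50 and 3.74 TPM with the PRC1cKO label, a log2 difference of -2.30 (SE 0.16, adjusted p = 0.00148 by limma), and it was called lower under every alternative. In the WT libraries Sycp2 was 2.50 and 2.18 TPM in Aundiff and 3.80 and 2.19 TPM in Adiff. Sycp3, the other axial element gene, was 106.0 and 108.8 TPM in PRC1ctrl and 133.0 and 78.5 TPM with the PRC1cKO label, which overlapped. Sycp1 was 46.4 and 66.6 against 31.9 and 24.7 TPM, a log2 difference of -0.96 (SE 0.21, adjusted p = 0.0168) that missed the fold. Sycp1 was called lower without PRC1ctrl replicate 1 (-1.22) or without PRC1cKO replicate 1 (-1.14).

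Spo11 was 5.81 and 6.82 TPM in PRC1ctrl and 1.61 and 2.23 TPM with the PRC1cKO label. The groups were well apart (log2 difference -1.33, SE 0.19, adjusted p = 0.00436), and it was called lower under every alternative in which it was tested. Msh4, a MutS homolog that stabilises crossover intermediates, was 4.95 and 6.00 against 1.97 and 1.98 TPM (log2 difference -1.12, SE 0.18, adjusted p = 0.00568). Its partner Msh5 was 4.52 and 5.71 against 3.49 and 2.79 TPM and did not pass (log2 difference -0.56, SE 0.19, adjusted p = 0.0655). Mcmdc2, an MCM-like protein gene needed for strand exchange, was 4.54 and 6.22 against 1.39 and 2.59 TPM (log2 difference -1.11, SE 0.25, adjusted p = 0.0183). Meioc was 9.26 and 14.7 against 4.85 and 5.08 TPM, with no overlap (log2 difference -1.09, SE 0.22, adjusted p = 0.0125). Ythdc2, at 9.93 and 10.3 against 5.30 and 4.36 TPM, had a log2 difference of -0.93 (adjusted p = 0.00731) and was not called.

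A further 8 genes were lower at an adjusted p under 0.05 within the fold, among them Sycp1 and Ythdc2, where 15.8% of all genes were. Hfm1 was 12.4 and 13.4 against 7.32 and 5.81 TPM (log2 difference -0.88, adjusted p = 0.00935), and Tex14, which keeps germ cells joined by bridges, was 103.1 and 105.1 against 63.3 and 71.8 TPM (-0.62, adjusted p = 0.00939). The others were Stag3, Rec8 (16.5 and 20.9 against 10.6 and 12.6 TPM), Mlh3 and Rnf212 (29.2 and 28.7 against 17.4 and 21.1 TPM), from -0.76 to -0.57 on the log2 scale, and neither Hfm1 nor Tex14 overlapped between the groups. Hfm1 (-1.03) and Ythdc2 (-1.05) were called lower without PRC1cKO replicate 1. Besides Prdm9, given below, genes called in WT cells that did not pass here were Mei1, Smc1b, Rad21l, Mnd1 and Hsf2bp. Mei1 was at 7.59 and 9.76 against 8.09 and 9.22 TPM and Smc1b at 46.0 and 44.6 against 39.4 and 51.4 TPM. Rad21l was at 17.7 and 16.4 against 14.9 and 13.5 TPM and Mnd1 at 42.9 and 39.7 against 43.3 and 44.0 TPM. Hsf2bp was at 41.9 and 41.5 against 42.5 and 42.5 TPM. Mei1 and Smc1b overlapped between the groups, and Rad21l, Mnd1 and Hsf2bp were apart by small amounts.

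Positive differences were found in 11 of the 38 genes, where 34.2% of all genes were positive. M1ap was 19.7 and 21.3 TPM in PRC1ctrl and 33.9 and 40.9 TPM with the PRC1cKO label (log2 difference 0.83, SE 0.14, adjusted p = 0.00698), and was called higher when the libraries were scaled by median of ratios (1.03) or by quantiles (1.10). Psmc3ip was 9.76 and 9.63 against 14.4 and 15.3 TPM (log2 difference 0.57, adjusted p = 0.0225), Syce3 147.3 and 146.9 against 210.3 and 211.2 TPM (0.52, adjusted p = 0.0106), and Rec114 44.4 and 44.8 against 57.7 and 59.5 TPM (0.39, adjusted p = 0.0371). All 4 had both labelled libraries above both controls and passed the adjusted p within the fold, as did 4.6% of all genes in that direction. Prdm9 overlapped between the groups here, at 1.51 and 3.31 TPM in PRC1ctrl and 2.07 and 1.73 TPM with the PRC1cKO label (log2 difference -0.18, SE 0.28). Of the list of other meiotic genes 34 were tested and 6 called lower, namely Brca2, Tex15, Shoc1, Ankrd31, Zfp541 and 4930447C04Rik, with a median of -0.22. Spermatid markers moved with the label here too, 6 of 8 tested being called lower with Prm2, Acrv1 and Gapdhs at 0 in both labelled libraries, and 3 of 8 pachytene markers (Mybl1, Pgk2 and Ybx2) were lower. Of the differentiating markers, 3 of 6 (Dmrtb1, Esx1 and Kit) were called higher, with sums of 556 and 619 against 688 and 768 TPM, and of the undifferentiated ones Neurog3 was called lower. Their part in the lower levels of Sycp2, Spo11, Msh4, Mcmdc2 and Meioc was not tested. The direction of the set as a whole turned with the scaling: scaled by quantiles, 22 genes were positive and 16 negative with a median of 0.06 beside 0.04 over all genes, of which 587 were called higher and 879 lower in place of 210 and 1807, and of the 5 calls those for Meioc, Mcmdc2 and Msh4 were lost by quantiles or by median of ratios (-0.90, -0.95 and -0.96 by the latter). Meioc was also lost without PRC1ctrl replicate 2 (-0.78), PRC1cKO replicate 1 (adjusted p = 0.0816) or PRC1cKO replicate 2 (0.066), and Mcmdc2 without PRC1ctrl replicate 2 (-0.92) or PRC1cKO replicate 1 (adjusted p = 0.106).

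The last comparison asks whether the difference between the labels was itself different in the Win18446 libraries and at 2 months, by an interaction term over the 8 PRC1 libraries. Of the 38 genes 5 were called, all toward lower values after Win18446, where 4.98% of 18354 genes were called in that direction and 2.76% in the other, 7.74% in all. They were Sycp2 (-2.86, SE 0.43, adjusted p = 0.0161 by limma), Meioc (-2.55, SE 0.50, adjusted p = 0.0308), Prdm9 (-2.21, SE 0.42, adjusted p = 0.0294), Stag3 (-1.96, SE 0.33, adjusted p = 0.0212) and Ythdc2 (-1.47, SE 0.33, adjusted p = 0.0456). Meioc and Stag3 were high with the PRC1cKO label at 2 months and low after Win18446, where Stag3 was 85.2 and 105.2 TPM in PRC1ctrl against 53.7 and 57.4 TPM with the PRC1cKO label. Sycp2 was 20.6 and 14.9 against 33.0 and 21.02 TPM at 2 months, and Ythdc2 4.05 and 4.86 against 5.97 and 7.93 TPM, both without overlap in the direction opposite to that after Win18446. In Prdm9 the difference of 2.03 at 2 months stood beside -0.18 after Win18446. As the 5 genes were called on these same libraries, such values describe the calls and add no support. The interaction was negative in 35 of the 38 genes and in 72.1% of all genes tested, and its median was -0.83 in the set and -0.41 over all. Scaled by median of ratios, which puts the median of all genes at 0.06, 26 were negative with a median of -0.22 and 3 were called, and over all genes 839 were called higher and 304 lower in place of 506 and 914. Those 3 were Stag3, Meioc and Prdm9. None of the 38 genes was called with any 1 of the 4 Win18446 libraries left out, 2 were without PRC1ctrl replicate 1 and 1 without PRC1cKO replicate 2 at 2 months, and kit and treatment changed together.

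Across the separate comparisons, which share no libraries, the genes can be set side by side. Of the 36 genes tested in both PRC1 comparisons, 22 were positive at 2 months and negative after Win18446, and none the reverse. Another 10 were positive in both and 4 negative in both. Of all genes, 65.1% were positive at 2 months and 65.8% negative after Win18446. Scaled by quantiles, 22 of the 38 genes were positive after Win18446. Of the 35 genes tested in WT cells and at 2 months, 21 were positive in both, and 58.1% of all genes were positive in WT cells. Shares of all genes with each pair of signs were not counted. Pearson's r across these 35 genes was 0.50 (Spearman's rho 0.39), and 0.32 across 12155 genes, where the genes are not independent replicates. Between WT cells and the Win18446 comparison r was 0.16 across 37 genes and 0.13 across 14499 genes. Between the PRC1 comparisons it was 0.297 across 36 genes and 0.299 across 12334 genes. Of the 8 genes called higher in WT Adiff, Prdm9, Meioc, Smc1b and M1ap had log2 differences above 1 at 2 months. None of these passed the test there, Rec8 and Mei1 were not tested, and the share of all genes above 1 was not counted. Meioc was called lower after Win18446. The 4 genes called lower in WT Adiff did not share a direction at 2 months, where Rad21l was 1.06, Hsf2bp 0.62, Mnd1 0.09 and Rnf212 -0.49.

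**Figure D5:**
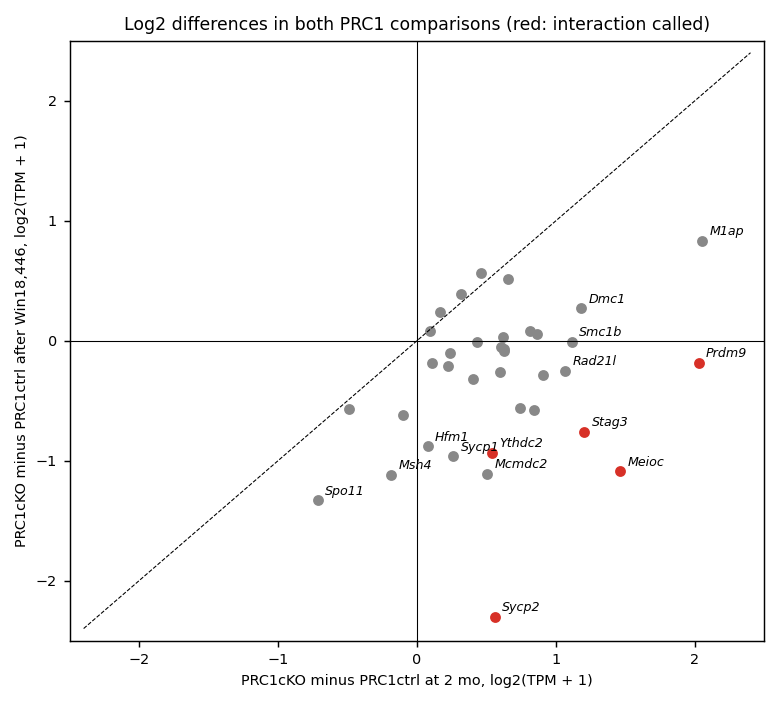
Log2 difference between the labels PRC1cKO and PRC1ctrl after Win18446 (vertical) against the same at 2 months (horizontal) for the 36 genes tested in both, with 1 point per gene, a dashed line of equal differences and genes called for the interaction in red. Most genes, 22 of 36, lie right of 0 and below 0, with Prdm9 at 2.03 and -0.18 and Sycp2 at 0.56 and -2.30. Of all genes, 65.1% were positive at 2 months and 65.8% negative after Win18446.

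Some values carry limits of position. In the gencode annotation, 80.5% of the exon bases of Spata22 lie in exons of another gene, Gm49340, on the same strand, so its reads may be shared. On the opposite strand, 52.2% of the exon bases of Sycp3 overlap Chpt1, 26.9% of those of Rec114 overlap Nptn and 21.2% of those of Psmc3ip overlap Mlx. The share was at most 2.15% for Mcmdc2, Msh4 and Hsf2bp and 0 for the remaining genes. The 2-month PRC1 libraries do not mark strand, and reads of these partners cannot be told apart there. On GRCm38, the genes named most often lie at chr17:15543079-15564354 for Prdm9, chr6:82946902-83030309 for M1ap and chr2:178345293-178407685 for Sycp2.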

How the data were processed

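Gene-level TPM from 12 RNA-seq libraries of sorted mouse spermatogonia was analysed. According to the study's methods, reads were trimmed with Trim Galore 0.6.6, aligned to GRCm38 with HISAT2 2.2.1, filtered with SAMtools 1.9 and quantified by the authors with RSEM 1.3.3, and the deposited values are TPM. Counts that the authors made with HTSeq 1.6.0 for DESeq2 1.28.1 were not used here. TPM keeps no library depth, so counting error could not be given.

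Groups were taken from the sample labels, and replicates were pooled sorted cells. Genes with at least 1 TPM in at least 2 libraries of a comparison were tested on log2(TPM + 1) by limma 3.58.1 with trend and robust moderation in R 4.3.3, with Benjamini-Hochberg adjustment over all genes tested, two-sided. A gene was called at an adjusted p under 0.05 and a log2 difference beyond 1. Each comparison was fitted on its own 4 libraries and the interaction on 8. An exact permutation test of 2 against 2 libraries cannot go below a two-sided p of 0.33 and was not used. The scripts were tested on simulated data. The genes, the marker lists (spermatogonia, pachytene spermatocytes, spermatids, Sertoli cells, Leydig cells and macrophages) and the list of other meiotic genes were chosen with earlier results of these data known. Values per library are given for the genes called in any comparison, the 3 largest differences each way, the 3 highest means, and Prdm9, M1ap and Meioc, with the rest mostly by ranges. Alternatives were a pseudocount of 0.1, no filter, a mean of at least 5 TPM, scaling by median of ratios or quantiles, a replicate block, a fit over all 12 libraries, plain moderation and leaving out each library. Motifs were searched in RefSeq promoters with Python 3.11.15, and exon overlaps were taken from gencode vM21.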

Additional observations from a re-analysis of the deposited data

Results flagged for a closer look

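The difference between the labels PRC1cKO and PRC1ctrl was itself different after Win18446 and at 2 months in 5 genes, by the interaction term of limma over 8 libraries: Sycp2 (-2.86), Stag3 (-1.96), Meioc (-2.55), Ythdc2 (-1.47) and Prdm9 (-2.21), all on the log2 scale and all toward lower values after Win18446. Over all genes tested, 4.98% were called in that direction and 72.1% were negative. None of the 5 was called with any 1 of the 4 Win18446 libraries left out, and Sycp2 and Ythdc2 were not called under median of ratios or quantiles. In Sycp2, Stag3, Meioc and Ythdc2 both libraries labelled PRC1cKO were above both controls at 2 months and below both after Win18446. Of all genes tested in each comparison, 27.5% were so at 2 months and 49.3% after Win18446. The interaction that picked these genes used the same 8 libraries, so this separation adds no support. Kit and treatment changed together between the pairs, so their parts cannot be told apart.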

How the results depend on the processing

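With 2 libraries a group and TPM that keep no depth, small differences in genes of a few TPM could not be resolved, and the median SE of the set at 2 months was 0.39 on the log2 scale. In WT cells the counts of 8 higher and 4 lower ranged from 6 to 9 and from 2 to 4 with a library left out, and the median from 0.26 to 0.58. At 2 months the count of genes called higher went from 0 to 1 under median of ratios or quantiles and to 5 in the fit over 12 libraries. It was 0 with any library left out, but Prdm9 fell below the filter without either library labelled PRC1cKO and was not tested there. The median of 0.58 at 2 months became 0.32 under median of ratios and 0.40 under quantiles. It ranged from 0.51 to 0.61 with a library left out. After Win18446 the count of 5 lower became 3 with no filter and 2 with a mean of at least 5 TPM, under median of ratios and under quantiles, where 1 gene, M1ap, was called higher under each scaling. It ranged from 3 to 6 with a library left out. The median of -0.20 became -0.10 with a mean of at least 5 TPM, -0.052 under median of ratios and 0.057 under quantiles, and ranged from -0.31 to -0.13 with a library left out. The interaction count of 5 became 2 with a pseudocount of 0.1, no filter or a mean of at least 5 TPM and 3 under either scaling, and ranged from 0 to 6 with a library left out. Of all genes, 4.98% were called lower for the interaction. That share was 1.32% with a pseudocount of 0.1, 1.24% with no filter and 0.792% with a mean of at least 5 TPM. It was 1.66% under median of ratios and 2.11% under quantiles. After Win18446 10.9% of all genes were called lower, and 4.84% with no filter and 7.54% with the mean filter. Under median of ratios and quantiles these were 7.92% and 5.32%. At 2 months 0.559% and 0.738% were called higher under those scalings. The mean filter and the leave-one-out fits rest on fewer genes or samples, and for the other settings the cause was not tested. Where a library left out gave a group 1 sample, that sample was assumed to vary like the others.

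Groups share replicate numbers in the labels, but nothing ties same-numbered samples together and there are only 2 pairs in each comparison. Deviations of same-numbered libraries correlated at 0.16 in WT cells, 0.38 at 2 months and 0.12 after Win18446. With the replicate block, 9 genes were called higher and 4 lower in WT cells, where 11.4% and 9.5% of all genes were. At 2 months 6 were called higher (M1ap, Prdm9, Meioc, Stag3, Dmc1 and Smc1b), as were 1074, or 7.7%, of all genes. After Win18446 5 were called lower, as were 11.2% of all genes. For the interaction 6 were called, where 2.8% of all genes were called higher and 5.86% lower.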
